A study of Mus musculus with 38 samples.

Results

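The let-7 and mir-98 microRNAs (miRNAs) of mouse sperm are described here in 38 small RNA libraries, 1 per mouse. The members were the miRNA rows of the count tables whose name began with mmu-let-7 or was mmu-mir-98, and 13 of 689 miRNA rows fitted that rule. These were mmu-let-7a-1, mmu-let-7a-2, mmu-let-7b, mmu-let-7c-1, mmu-let-7c-2, mmu-let-7d, mmu-let-7e, mmu-let-7f-1, mmu-let-7f-2, mmu-let-7g, mmu-let-7i, mmu-let-7k and mmu-mir-98. The row mmu-let-7k held 2 reads over all mice, 1 in each of 2 mice, and was left out of every test by a minimum mean of 10 counts; the other 12 rows were among the 200 miRNA rows tested.

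The mice were C57BL6/J males from 21 litters, killed at 11–13 weeks of age. Their mothers ate a control (CT, 20% protein) or a protein restricted (PR, 8% protein) diet during pregnancy and lactation, and the sons were put on either diet at weaning, at 21 days. CTCT mice (n = 10) had the control diet throughout, CTPR mice (n = 9) were restricted after weaning only, PRCT mice (n = 9) were restricted before weaning only, and PRPR mice (n = 10) were restricted throughout. Litter, read from the mouse number, linked a CTCT to a CTPR brother in 8 litters and a PRCT to a PRPR brother in 9 litters. Mice 47I1 and 47I2 were grouped by their sample labels as CTCT and CTPR, whereas a table of mice supplied with the study lists them the other way round, and the family ratios, the ranges of the members and the counts over litters are given below both ways. The RNA came from whole sperm preparations, in which fewer cells of a type and less RNA per cell cannot be told apart.

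let-7 was found as a gene that times larval development in the roundworm, and its mature form is the same in flies, fish and mammals. Mammals carry several copies and close relatives, of which mir-98 is one. A mature miRNA guides an Argonaute protein to messenger RNAs that pair with its seed, bases 2 to 8, and lowers their translation and stability. The let-7 miRNAs act on messages such as those of Lin28a, Hmga2 and Ras genes and build up as cells differentiate, while LIN28 proteins hold back their maturation. They are abundant in adult tissues, the male reproductive tract among them, and sperm carry them in their small RNA.

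The mature sequences of the 9 measured members, from RefSeq for GRCm38.p6, are printed because the seed makes the set 1 family and because the few bases outside it are all that tells 1 member's reads from another's. Capitals mark the seed.
let-7a: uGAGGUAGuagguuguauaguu
let-7b: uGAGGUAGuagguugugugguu
let-7c: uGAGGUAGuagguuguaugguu
let-7d: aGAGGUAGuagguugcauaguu
let-7e: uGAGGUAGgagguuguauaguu
let-7f: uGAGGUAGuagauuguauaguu
let-7g: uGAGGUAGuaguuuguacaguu
let-7i: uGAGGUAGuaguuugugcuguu
miR-98: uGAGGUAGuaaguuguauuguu
All 9 are 22 bases long and share the seed GAGGUAG. Counting from 1 at the 5′ end with let-7a as the reference, let-7c differs by A19G, let-7e by U9G and let-7f by G12A. let-7b (A17G, A19G), let-7d (U1A, U16C), let-7g (G12U, U18C) and miR-98 (G11A, A19U) each differ from let-7a by 2 substitutions, and let-7i by 4 (G12U, A17G, U18C, A19U). In the RefSeq table, 11 distinct mature names had this seed, 1 of them outside the family by name: miR-1961, which held 4 reads over all mice.

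The 12 hairpins lie at 8 places in the genome (GRCm38; host genes from GENCODE vM21). let-7a-1 (chr13:48538179-48538272), let-7f-1 (chr13:48537829-48537917) and let-7d (chr13:48536012-48536114) sit on the minus strand in exons of the long intergenic RNA 6720427I07Rik, with 261 bases between let-7a-1 and let-7f-1 and 1714 between let-7f-1 and let-7d. let-7c-2 (chr15:85706603-85706697) and let-7b (chr15:85707319-85707403) are in exons of the non-coding transcript Lncppara, 621 bases apart. let-7f-2 (chrX:151912346-151912428) and mir-98 (chrX:151913214-151913321) are in an intron of Huwe1, which encodes a ubiquitin ligase, 785 bases apart. let-7e (chr17:17830352-17830444) is in an intron of Spaca6, a gene for a sperm membrane protein, 367 bases before mir-125a. let-7c-1 (chr16:77599657-77599750) is in an intron of Mir99ahg, 656 bases after mir-99a. let-7a-2 (chr9:41536716-41536811) follows mir-100 by 5211 bases in introns of 3110039I08Rik and Gm49317. let-7g (chr9:106178840-106178927) is in an intron of Wdr82, a subunit of a histone methyltransferase complex, and let-7i (chr10:122985640-122985724) is in an exon of the transcribed pseudogene D630033A02Rik.

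Reads were compared as reads per 1000000 genome-matched reads (rpm), and as a share of miRNA reads. The libraries held 4465281 to 7612603 genome-matched reads, but miRNA was only 0.158% to 5.55% of them. Of the 10 mice with the least miRNA, 9 belonged to 5 litters, 02A, 07C, 08G, 09H and 14A, and every sequenced mouse of those litters was among them (0.158% to 0.712% miRNA, against 0.657% to 5.55% in the other 29 mice). No miRNA row of the 200 tested passed an adjusted P of 0.05 in any of the 5 comparisons made (edgeR quasi-likelihood test, Benjamini-Hochberg).

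The family was a large part of sperm miRNA in every mouse. Summed over its rows it made up 8.42% to 21.5% of miRNA reads, with a mean of 13.1% ± 2.46 (SD, n = 38). In rpm it ranged from 202 in CTPR mouse 02A8 to 6374 in CTPR mouse 57P1, with a mean of 2190 ± 1489 (SD, n = 38). For scale, the highest miRNA rows were mir-148a (mean 3764 rpm), mir-143 (1565 rpm), mir-3535 (761 rpm), mir-21a (678 rpm) and mir-10a (589 rpm). The next row, the 6th of 689, was mmu-let-7g with a mean of 538 rpm ± 392 (SD, n = 38).

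**Figure D1:**
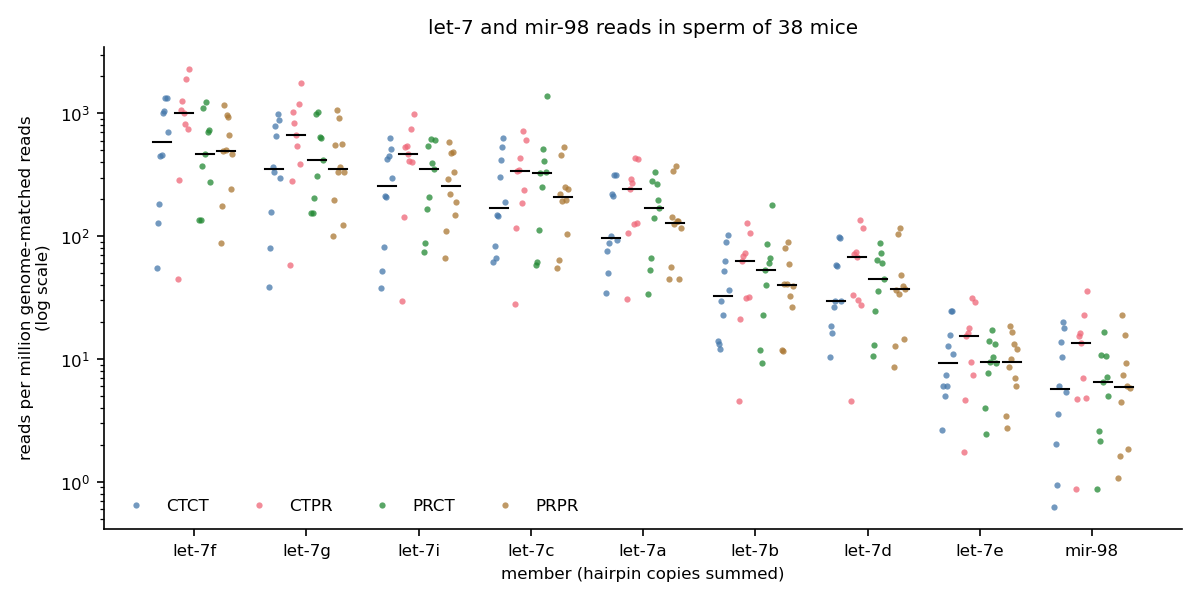
Reads per 1000000 genome-matched reads (rpm, log scale) of each member with hairpin copies summed, 1 point per mouse, coloured by diet group, with a bar at the group median. The lowest and highest CTPR mice differed by more than 10-fold for every member, the order of the group medians was the same in the 4 groups except for let-7b and let-7d in CTPR, and the groups overlapped for all 9 members.

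Within the family, 4 members carried most of the reads. let-7f made up 31.5% of family reads ± 6.08 (SD, n = 38), let-7g 24.4% ± 4.73, let-7i 15.9% ± 2.12 and let-7c 13.8% ± 5.98, each with its hairpin copies summed. let-7a, the founding sequence, made up 8.54% ± 2.47. let-7b (2.43% ± 0.90), let-7d (2.34% ± 0.59), let-7e (0.60% ± 0.21) and mir-98 (0.37% ± 0.11) made up the rest. The mature forms are equally long, so no length correction was made. These are shares of reads, and how evenly the library preparation and the mapping capture each member was not measured.

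The order of the levels was taken from the mean shares of the same 38 mice, so the test asks only how well neighbours in it were separated. It was run on the mean over 21 litters of the log2 ratio of their counts (0.5 added), with a two-sided permutation test that flips signs of litters (100000 resamples) and Benjamini-Hochberg adjustment over the 8 neighbouring pairs. let-7f was above let-7g in 31 of 38 mice (mean log2 ratio 0.40 ± 0.36, SD over litters; adjusted P = 0.000187). let-7g was above let-7i in 33 of 38 mice (0.56 ± 0.34; adjusted P = 9.6e-05). let-7i exceeded let-7c in 30 of 38 mice, with a smaller mean log2 ratio of 0.29 ± 0.47 (adjusted P = 0.0126). The largest steps were from let-7a down to let-7b, 1.81 ± 0.45 on the log2 scale in 37 of 38 mice, and from let-7d down to let-7e, 1.99 ± 0.33 in 38 of 38 mice (both adjusted P = 5.3e-05). let-7b and let-7d were not separated: let-7b was the higher in 18 of 38 mice, and the mean log2 ratio was 0.03 ± 0.36 (adjusted P = 0.675).

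**Figure D2:**
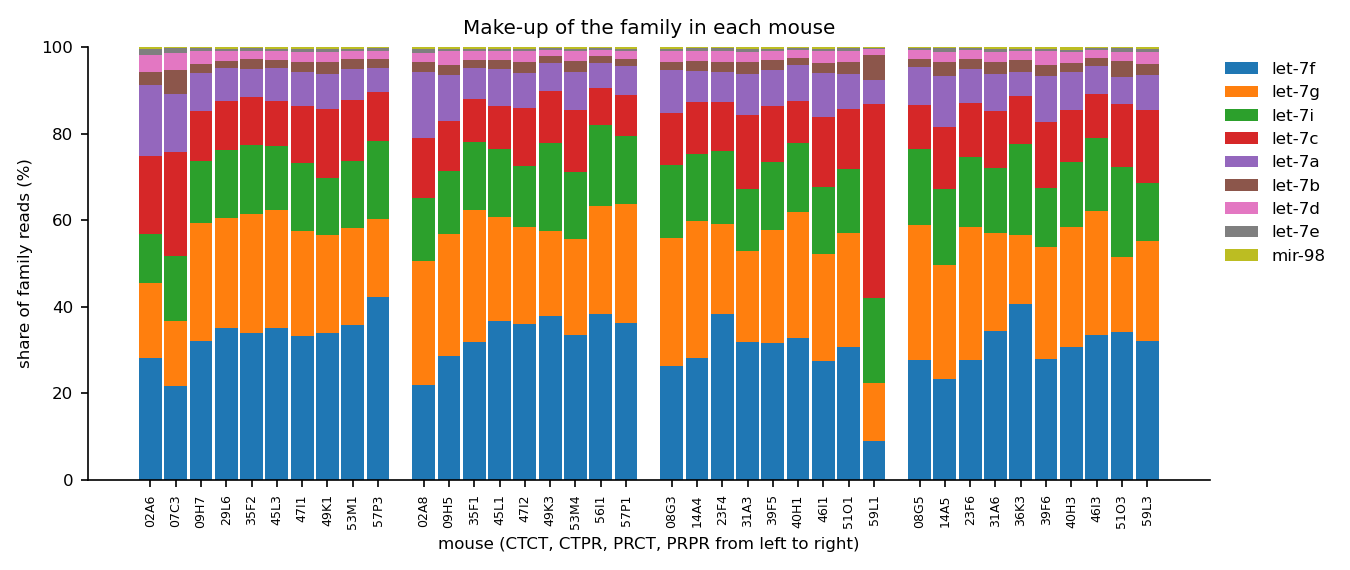
Share of family reads (%) taken by each member, hairpin copies summed, as 1 stacked bar per mouse, with mice in order of litter within diet group. PRCT mouse 59L1 departed most from the others: let-7c took 45.0% of its family reads and let-7f 8.94%.

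PRCT mouse 59L1 stood apart in its make-up, though its miRNA fraction, 1.44% of genome-matched reads, was near the middle of the 38 mice. let-7c was 9.68% of its miRNA reads, against 0.911% to 3.89% in the other 37 mice and 2.28% in its PRPR brother 59L3. let-7b was 1.25% of miRNA reads in 59L1 and at most 0.890% elsewhere, and let-7i was 4.23% there and at most 2.75% elsewhere. let-7f went the other way: its 1.93% of miRNA reads in 59L1 was the lowest of 38 mice. let-7g, let-7a, let-7d, let-7e and mir-98 of 59L1 lay within the range of the other mice. mir-99a, next to let-7c-1 in Mir99ahg, was 3.43% of miRNA reads in 59L1 and 2.33% to 3.96% in the others, so it lay inside their range. Outside the family, the summed epithelium markers (listed below) were 1.77% of miRNA reads in 59L1, the lowest of 38 mice, beside a PRCT median of 3.74%. Its summed skeletal and heart muscle markers, 0.250%, were the lowest in PRCT, and its summed white blood cell markers, 0.143%, were the highest in PRCT. Results for let-7c, let-7b and let-7i that involve PRCT mice are given with and without this mouse, the latter from fits with the copies summed.

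Reads of hairpin copies that share a mature sequence could not be assigned to a copy. In the 38 mice let-7a-1 took 53.1% ± 19.1 (SD) of let-7a reads, let-7c-1 53.1% ± 18.3 of let-7c reads and let-7f-1 49.0% ± 18.3 of let-7f reads. The share varied widely around these means. let-7a-1 was given 0 of 195 let-7a reads in PRCT mouse 14A4. Counting error alone would allow up to 3 reads (0.522 rpm), but how reads were shared between copies is unknown, so that limit does not bound let-7a-1. In PRPR mouse 31A6 let-7a-1 had 736 reads beside 119 of let-7a-2 (86.1%). let-7c-1 ranged from 13.6% in CTCT mouse 02A6 to 80.3% in CTCT mouse 09H7. let-7f-1 ranged from 11.9% in CTPR mouse 53M4 to 91.8% in CTPR mouse 09H5. The fold changes of single copies therefore carry this spread as well, and values with the copies summed are given beside them.

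**Figure D3:**
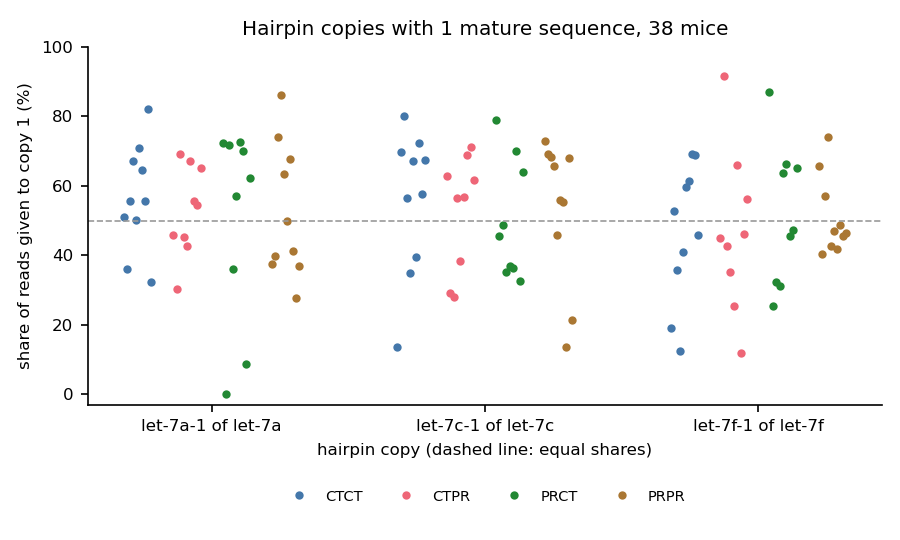
Share (%) of let-7a, let-7c and let-7f reads that the tables give to copy 1, 1 point per mouse, coloured by diet group. The points lie between 0% and 91.8% around means near 50%, with no diet group apart from the others.

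Post-weaning protein restriction after a control start (CTPR against CTCT) gave the largest ratio of family rpm among the 4 pairs of groups compared, with no member passing the test. CTPR and PRPR were not compared. The summed family lay at 256 rpm in the lowest CTCT mouse, 1502 at the median and 4040 in the highest, and at 202, 3021 and 6374 rpm in CTPR. The groups overlapped over most of their range, and the log2 ratio of the group means was 0.62. All miRNA moved the same way: it was 1.44% ± 0.93 of genome-matched reads in CTCT (SD, n = 10) and 2.47% ± 1.60 in CTPR (SD, n = 9). As a share of miRNA reads the family was 13.3% ± 2.74 in CTCT and 12.1% ± 1.22 in CTPR, so the direction was the opposite on that scale, by a log2 ratio of -0.13. With mice 47I1 and 47I2 exchanged the rpm ratio was 0.46, without litter 47I it was 0.66, and without the 5 litters of least miRNA it was 0.51.

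No member was called in that comparison: 0 of 12 at an adjusted P under 0.05, with a background of 0% of 200 rows, and 0 of 12 at an unadjusted P under 0.05, where the background was 37% (74 rows, every one of them higher in CTPR). As shares of miRNA reads 13 of the 200 rows were under that unadjusted P, 5 of them higher in CTPR and 8 lower, and with litter as a block, in rpm, 8 rows were, all higher. By DESeq2, 0 of 12 were called and 1 of 12 had an unadjusted P under 0.05. The number of all 200 rows under that P by DESeq2 is given in the last section. The 12 log2 fold changes were all positive, from 0.22 to 1.05, with a median of 0.53, below the median of 0.80 over all 200 rows. With 47I1 and 47I2 exchanged they ran from 0.10 to 0.71 with a median of 0.37, and with litter as a block from 0.03 to 0.69 with a median of 0.27. let-7g, the highest single row, lay at 38.6 rpm in the lowest CTCT mouse, 350 at the median and 985 in the highest, and at 57.9, 670 and 1759 rpm in CTPR. The groups overlapped, and its log2 fold change was 0.71 (SE 0.52; 95% interval -0.33 to 1.75; adjusted P = 0.24). let-7i had a log2 fold change of 0.70 (SE 0.49; interval -0.28 to 1.69; adjusted P = 0.227).

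mir-98, the scarcest measured member, lay at 0.62, 5.69 and 20.1 rpm in the lowest, median and highest CTCT mouse and at 0.87, 13.6 and 35.6 rpm in CTPR. Its log2 fold change was 0.77 (SE 0.45; interval -0.13 to 1.66; adjusted P = 0.169). The largest value was that of let-7f-2, its neighbour in Huwe1, at 1.05 (SE 0.54; interval -0.03 to 2.13; adjusted P = 0.141), whereas let-7f-1, which gives the same mature sequence, had 0.23 (SE 0.56). With the copies summed, let-7f had 0.65 (SE 0.53), let-7a 0.60 (SE 0.47) and let-7c 0.37 (SE 0.52). let-7b (0.43), let-7d (0.51) and let-7e (0.38) were at the lower end. let-7e was also the member nearest to a difference once values were taken as shares of miRNA reads, at -0.48 with an unadjusted P of 0.0270 and an adjusted P of 0.61, again without passing. The median of all 200 rows moved from 0.80 to 0.05 on that scale, and 10 of 12 members turned from positive to negative.

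**Figure D4:**
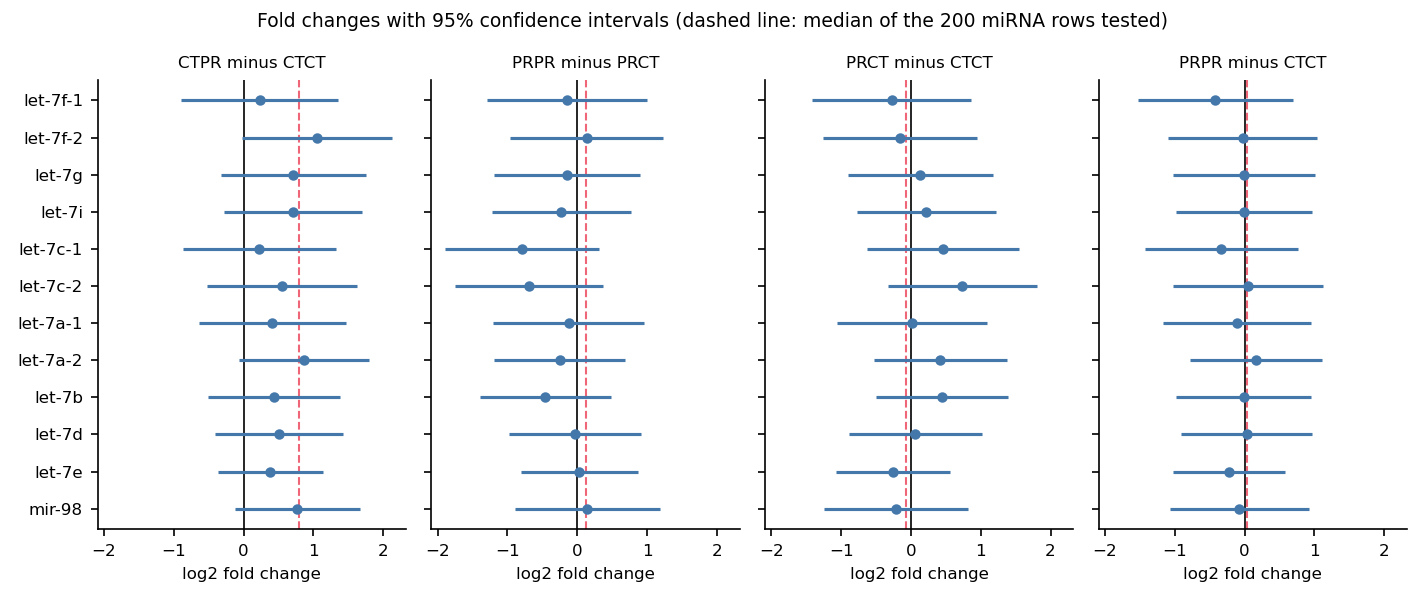
Log2 fold change of each of the 12 rows tested in 4 comparisons of diet groups (points) with 95% confidence intervals (bars), edgeR on rpm; the dashed line is the median of the 200 miRNA rows tested. Every interval includes 0, and in CTPR against CTCT all 12 points lie between 0.22 and 1.05.

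Among mice restricted before weaning (PRPR against PRCT), 9 of 12 rows had a negative log2 fold change in PRPR, none past the test. The summed family lay at 485, 2400 and 3953 rpm in the lowest, median and highest PRCT mouse and at 379, 1629 and 3844 rpm in PRPR. The groups overlapped almost fully, and the log2 ratio of the means was -0.22. None of 12 members was called. The edgeR background was 0% at the adjusted and 0.5% at the unadjusted threshold, and 0 of 12 members passed the latter. By DESeq2 1 of 12 did, which is not read as a result because the DESeq2 share over all rows is not given here. The 12 log2 fold changes ran from -0.79 to 0.15 with a median of -0.15, beside 0.12 over all 200 rows. let-7c had the largest difference, -0.74 with its copies summed (SE 0.52; interval -1.77 to 0.30; unadjusted P = 0.16), which became -0.16 (SE 0.51) without mouse 59L1. let-7b likewise went from -0.45 (SE 0.47) to -0.01 (SE 0.48) without that mouse, and let-7i from -0.23 to -0.07. The PRCT mice had let-7c at 58.7, 327 and 1394 rpm (lowest, median and highest) and the PRPR mice at 54.6, 210 and 532 rpm. The highest PRCT value is that of 59L1. As a share of miRNA reads the difference of let-7c was -0.72 (SE 0.28), with an unadjusted P of 0.0152 and an adjusted P of 0.917, and without 59L1 it was -0.15 (SE 0.21; unadjusted P = 0.477; adjusted P = 0.883).

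Pre-weaning restriction alone (PRCT against CTCT) and restriction throughout (PRPR against CTCT) were compared with the same CTCT mice, so these comparisons and CTPR against CTCT are not independent. In PRCT the log2 ratio of mean family rpm to CTCT was 0.11, and the members' log2 fold changes ran from -0.28 to 0.74 with a median of 0.10 (all rows -0.06). With mice 47I1 and 47I2 exchanged that ratio was 0.02, and without litter 47I it was 0.30. In PRPR the ratio was -0.10 (-0.20 with the exchange and 0.08 without the litter), and the members' values ran from -0.42 to 0.16 with a median of -0.02 (all rows 0.03). No member of 12 was called in either, with backgrounds of 0% and, unadjusted, 0.5% in each, and 0 of 12 were under an unadjusted P of 0.05. By DESeq2 that number was 0 in both. let-7c-2 had the largest value against CTCT in PRCT mice, 0.74 (SE 0.53; adjusted P = 0.986). let-7c with its copies summed went there from 0.58 to 0.00 without mouse 59L1, let-7b from 0.44 to -0.01 and let-7i from 0.22 to 0.07. With 47I1 and 47I2 exchanged the members ran from -0.55 to 0.60 (median 0.06) in PRCT and from -0.41 to -0.06 (median -0.12) in PRPR. Without litter 47I they ran from -0.07 to 1.09 in PRCT, where let-7c-2 had an unadjusted P of 0.049 and an adjusted P of 0.995, and from -0.26 to 0.40 in PRPR. As a share of miRNA reads, let-7i was 2.37% ± 0.74 in PRCT (SD, n = 9) and 1.96% ± 0.35 in CTCT (SD, n = 10), with a log2 fold change of 0.28 (SE 0.13), an unadjusted P of 0.0433 and an adjusted P of 0.686. The highest of those PRCT values, 4.23%, is that of 59L1, without which the log2 fold change was 0.13 (SE 0.11; unadjusted P = 0.25; adjusted P = 0.931).

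Whether the effect of the diet after weaning depended on the diet before it was tested as an interaction, (CTPR minus CTCT) minus (PRPR minus PRCT). The 12 members had values from 0.35 to 1.24, median 0.87, beside a median of 0.68 over all rows, and 0 of 12 passed the adjusted threshold (background 0%) or the unadjusted one (background 2.5%, 5 rows); by DESeq2 0 of 12 passed either. let-7c-2 had the largest, 1.24 (SE 0.76; interval -0.27 to 2.76; adjusted P = 0.601). With the copies summed, let-7c went from 1.11 (SE 0.73) to 0.53 (SE 0.71) without mouse 59L1, let-7b from 0.89 to 0.44 and let-7i from 0.93 to 0.78. The median of the 12 members was 0.61 with 47I1 and 47I2 exchanged and 0.47 with litter as a block, all 12 values staying positive in both. Taken as shares of miRNA reads, the median of the members was -0.03 and 6 of 12 changed sign.

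Over all 17 pairs, brothers deviated from their groups together in family rpm. As a description, deviations of log2 family rpm from the group means had a correlation of 0.75 between brothers over 17 pairs, 0.75 in the 8 control litters and 0.77 in the 9 restricted ones. The same correlation for the share of miRNA in the library was 0.83 over 17 pairs. The family's share of miRNA reads gave lower values: 0.07 over 17 pairs, -0.37 in the control and 0.36 in the restricted litters. Litters 02A, 08G, 09H and 14A, of the 5 with the least miRNA, were among the pairs. Family rpm was 202 to 994 in mice of those 5 litters and 711 to 6374 in the other mice. No correlation between brothers was computed without those litters, so a likeness outside them is not shown.

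Within litters, the brother restricted after weaning had the higher family rpm in 6 of 8 control litters, with a mean log2 ratio of 0.32 ± 1.06 (SD, n = 8 litters). With 47I1 and 47I2 exchanged that was 5 of 8 litters and 0.22 ± 1.09. The exceptions under the labels were litters 02A, with the lowest value of -1.18, and 49K. The highest was 1.93, in litter 57P. In the 9 restricted litters it was higher in 4 and lower in 5, with a mean of -0.27 ± 0.77 (SD, n = 9 litters) and a range from -1.75 in 51O to 0.87 in 23F. As a share of miRNA reads it was higher in 4 of 8 control litters (3 of 8 with the exchange) and 2 of 9 restricted litters. Among the members, let-7e as a share of miRNA reads was lower in the restricted brother in 7 of 8 control litters (mean log2 ratio -0.41 ± 0.50, SD; 8 of 8 with the exchange), and in 4 of 9 restricted litters (-0.01 ± 0.46). Under the labels the other members were lower in 3 (let-7a) to 6 (let-7b, let-7c, let-7i) of 8 control litters. let-7e was also nearest to a difference on this scale in these same mice, so its litter count is not separate support. It had only 8 reads in CTPR mouse 02A8.

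**Figure D5:**
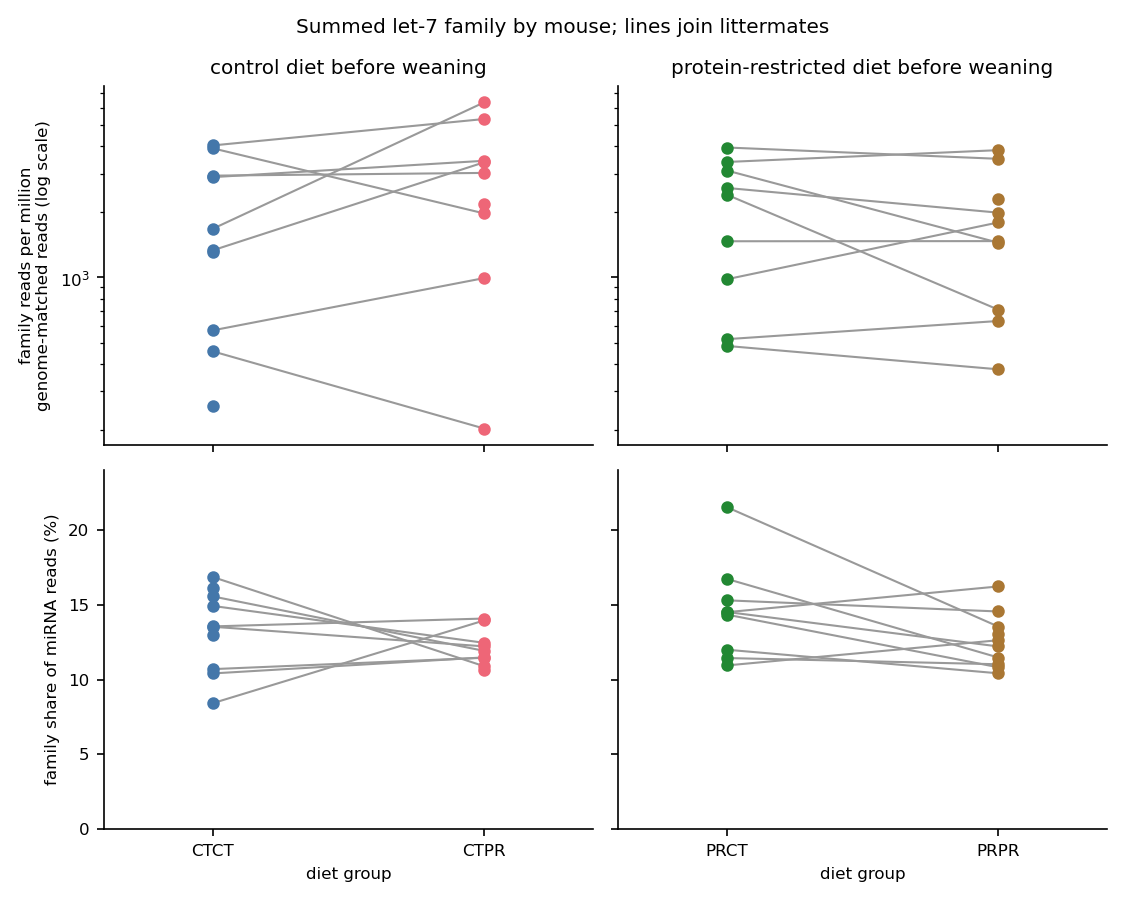
Summed family in rpm (top, log scale) and as a share of miRNA reads in percent (bottom) for each mouse, with lines joining brothers of a litter; control mothers at left, restricted mothers at right. In rpm the line rises in 6 of 8 control litters and 4 of 9 restricted litters, and in share in 4 of 8 and 2 of 9; with 47I1 and 47I2 exchanged the control counts are 5 of 8 and 3 of 8.

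Correlations between the members differed widely. All shares had the miRNA total as their denominator, and pairs of other miRNA rows were not tested. The counts below therefore have no background and are not shown to be particular to the family. On the log2 share of miRNA reads (1 rpm of miRNA reads added), averaged within 21 litters, 13 of 36 member pairs had a positive correlation at an adjusted P under 0.05 (two-sided permutation test, 100000 resamples, Benjamini-Hochberg over 36 pairs) and none a negative one, and the correlations ran from -0.26 to 0.94 with a median of 0.29, 10 of 36 being negative. Over the 16 litters outside the 5 with the least miRNA they ran from -0.31 to 0.93 with a median of 0.44, 6 of 36 being negative; let-7a with let-7g, for example, was 0.30 over 21 litters and 0.76 over 16. let-7b and let-7c were the closest pair, with r = 0.94 and rho = 0.90 (P = 1e-05 for each, the smallest that these permutations give; adjusted P = 0.00018 and 0.00012). Without litters 07C and 59L, the farthest from the median, r was 0.88, and over the 16 litters it was 0.93. These 2 mature sequences differ at 1 position, and the hairpins of let-7b and let-7c-2 share a transcript. Members on different chromosomes correlated too. let-7b with let-7e had r = 0.80 (adjusted P = 0.00036) and let-7c with let-7d r = 0.76 (adjusted P = 0.00084).

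let-7a and let-7d, of the chromosome 13 cluster, had r = 0.90 and rho = 0.87 (P = 1e-05 for each; adjusted P = 0.00018 and 0.00012), r = 0.87 without litters 02A and 07C, and r = 0.90 over the 16 litters. let-7f, of the same cluster and of Huwe1, had its highest correlation over 21 litters with mir-98, its other neighbour (r = 0.64, rho = 0.68; P = 0.00199 and 0.00086; adjusted P = 0.00716 and 0.00442; r = 0.59 without litters 14A and 59L, and 0.57 over the 16 litters). let-7f with let-7i had r = 0.29 over 21 litters but also 0.59 without litters 14A and 59L, and -0.03 over the 16 litters. With let-7a, from which its mature form differs at 1 position, let-7f had r = -0.21 (P = 0.372; adjusted P = 0.535; 0.12 over the 16 litters), and with let-7g, the other abundant member, r = -0.09 (P = 0.694; adjusted P = 0.757). With let-7d, of the same chromosome 13 cluster, let-7f had r = -0.08 (P = 0.727; adjusted P = 0.770; 0.13 over the 16 litters). Whether sharing a transcript goes with a higher correlation was not tested.

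The miRNAs processed from the same transcripts as let-7 hairpins were read as a second list, together with mir-202, which lies apart from them on chromosome 7. mir-99a and mir-100 share a seed, mir-125a and mir-125b are relatives of the roundworm lin-4, and mir-202 is often grouped with let-7. Of 7 rows on the list, mir-202 fell under the count minimum (at most 0.9 rpm) and 6 were tested: 0 of 6 were called in any of the 5 comparisons. In CTPR against CTCT the 6 log2 fold changes ran from 0.56 to 1.03 (median 0.62), and mir-125b-2 alone had an unadjusted P under 0.05 (1.03, SE 0.45; adjusted P = 0.118), beside a background of 37%. As shares of miRNA reads the 6 ran from -0.26 to 0.09 with 5 negative, and on that scale, by DESeq2 and with litter as a block 0 of 6 were under that P. In the other 4 comparisons 0 of 6 were, beside an edgeR background of 0.5% in each pair of groups and 2.5% for the interaction. By DESeq2 1 of 6 was, in PRPR against CTCT, which is not read as a result because the DESeq2 share over all rows is not given here. mir-99a, at 527 rpm on average, was close to let-7g in level and had 0.78 (SE 0.50). mir-99b and mir-125a, on both sides of let-7e in Spaca6, had 0.56 (SE 0.39) and 0.61 (SE 0.39), beside 0.38 for let-7e.

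The miRNAs outside the family whose share of miRNA reads followed that of the summed family most closely over 38 mice, of 188 rows, were mir-744 (r = 0.61), mir-541 (0.53), mir-196b (0.52), mir-337 (0.49) and mir-151 (0.49). Without mouse 59L1 these were 0.58, 0.44, 0.37, 0.50 and 0.34. The 38 points share the miRNA total as a denominator, and brothers are among them, so these values are given as a description.

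The paper reports high sperm purity in every diet group from methylation at imprinted regions, and no ribosomal RNA peaks in a representative RNA trace. Lists of miRNAs used as markers of cell types were read beside that, and they do not measure purity. All 6 miRNAs listed for sperm (mir-34b, mir-34c, mir-449a, mir-191, mir-10a, mir-10b) were detected, and their sum was 7.77% to 16.5% of miRNA reads over the 38 mice. mir-10a alone averaged 3.79%. How specific these 6 are to sperm was not tested, so their sum does not measure sperm content. Markers of epithelium (5 of 5 detected, mir-200 relatives) summed to 1.77% (in 59L1) to 4.83% and those of smooth muscle and stroma (5 of 5, mir-143 among them) to 4.51% to 15.5%. CTPR mouse 57P1, with the most miRNA and the highest family rpm, had the highest smooth muscle sum and the lowest sperm sum. CTCT mouse 07C3, with the least miRNA, had the lowest smooth muscle sum, but also the lowest sperm sum of CTCT, 8.44%. A relation between miRNA content and these sums was not tested. Skeletal and heart muscle markers (4 of 4) summed to at most 0.86%, white blood cell markers (4 of 4) to 0.40%, red blood cell markers (3 of 3) to 0.20%, nerve markers (2 of 2) to 0.06% and liver mir-122 to 0.10%, with both of these at 0 in the lowest library. Between groups, the smooth muscle sums had medians of 9.99% in CTCT, 11.2% in CTPR, 10.6% in PRCT and 9.67% in PRPR, and the sperm sums 10.3%, 9.92%, 10.5% and 10.3%. The nerve sums, all small, were the ones that differed most between CTCT and CTPR for their size: 0% to 0.0471% in CTCT (mean 0.0280%), 0.0333% to 0.0604% in CTPR (0.0461%), 0.0052% to 0.0370% in PRCT (0.0278%) and 0.0182% to 0.0494% in PRPR (0.0361%). The means of the other lists in CTCT and CTPR were 3.90% and 3.67% for epithelium, 0.502% and 0.504% for skeletal and heart muscle, 0.131% and 0.145% for white blood cells, 0.0851% and 0.0647% for red blood cells and 0.0027% and 0.0025% for liver. The part of these cells in the family's level was not tested.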

How the data were processed

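Sperm small RNA of 38 mice was prepared from the small RNA fraction of whole sperm (38 libraries, single-end reads). Per the paper's methods and the labels, the authors mapped the reads to the mouse genome (mm10) and to miRNA, tRNA, piRNA and rRNA databases with the SPORTS pipeline and deposited, for each mouse, the raw count of reads in each class and in each class member; how reads that fit several hairpins were shared out, and the database versions, are not given in the sources used here. Groups followed the sample labels. Reads not matching the genome held 0 family reads. Member rows summed to at least 96.9% of the miRNA class total in every mouse, and shares use the class total.

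Counts of all miRNA rows with a mean of at least 10 were fitted together with edgeR 4.0.16 in R 4.3.3 (quasi-likelihood, robust, 38 mice in 1 fit), with the number of genome-matched reads as the library size and no further scaling. P values were adjusted by Benjamini-Hochberg over the 200 rows of a comparison, with a threshold of 0.05. DESeq2 1.42.0 was an alternative. The summed family was given no P value. Scripts were tested on simulated data. No 2 mice of a group agreed within sampling noise: the smallest chi-square per degree of freedom over the miRNA rows was 11.2. Depth was 4465281 to 7612603 genome-matched reads, and a count of 0 allows up to 3 reads; both cover counting error only.

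Litter numbers pair brothers, each litter giving 1 mouse per group by the series' design. The deviations of log2 family rpm of brothers correlated at 0.75 over 17 pairs, the litters with the least miRNA included. The fit with litter as a block changed no call. The members, the lists of neighbouring miRNAs and of cell markers, and the rule for named rows (all family rows, the neighbours, the 5 rows most like the family and the 5 highest) were chosen with earlier results of these data known. The summing of hairpin copies (also as shares, with the block and, on both scales, without mouse 59L1), the counts over litters with 47I1 and 47I2 exchanged, the correlations over 16 litters and the omission of the 5 litters with the least miRNA were chosen after seeing the data. Other alternatives changed the library size, the filter, the rows tested, the tool, the samples in the fit, the grouping of litter 47I or the mice kept. Sequences and positions are those of RefSeq (GRCm38.p6) and host genes those of GENCODE vM21.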

Additional observations from a re-analysis of the deposited data

Results flagged for a closer look

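Each of the 4 diet groups was searched for a mouse whose gap to the nearest other mouse was too large a part of the group's range (Dixon's criterion), in 128 sets of values (a member, with its copies apart or summed, or the whole family, in 1 group and on 1 scale); 17 were marked, where chance alone marks about 1 in 20. That rate holds for independent, normally distributed values. The sets here overlap, since copies and their sums were searched on both scales, so no excess over chance is read from the 17. These values were not explained or tested further.

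Mouse 59L1 of the PRCT group accounted for 8 of the 17. It had 179 rpm and 1.25% of miRNA reads for let-7b, 894 rpm and 6.21% for let-7c-1, 3.47% for let-7c-2, 4.23% for let-7i, and, with the copies of let-7c summed, 1394 rpm and 9.68%. Its brother 59L3 (PRPR) was marked for let-7c-2 at 1.79% of miRNA reads, next to 1.08% in the nearest PRPR mouse.

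In CTCT, mouse 07C3 had let-7b at 0.890% of miRNA reads, mouse 02A6 had let-7c-2 at 2.42%, mouse 49K1 had let-7c-1 at 459 rpm and mouse 47I1 had let-7c-2 at 324 rpm. In CTPR, mouse 57P1 had let-7f-1 at 1295 rpm, next to 491 rpm. In PRPR, mouse 39F6 had let-7d at 0.534% of miRNA reads, mouse 31A6 had let-7f-1 at 3.70% and mouse 36K3 had let-7i at 2.75%.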

How the results depend on the processing

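No member was called in any of the 58 other settings, 38 of which left out 1 mouse each; the smallest adjusted P of a member was 0.0627, for let-7f-2 in CTPR against CTCT without mouse 02A8. The replicate block (litter) changed no call. The summed family was not fitted with it. Within litters its mean log2 ratio was 0.32 in CTPR against CTCT (8 litters) and -0.27 in PRPR against PRCT (9 litters). These are means of log ratios, unlike the log2 ratios of group means over all mice. In CTPR against CTCT the number of the 200 miRNA rows under an unadjusted P of 0.05 was 74, but 13 as shares of miRNA reads, 16 with TMM factors, 15 by DESeq2, 9 by the older edgeR method, 8 with the block, 30 with 47I1 and 47I2 exchanged and 26 when 08G5, 31A3, 35F2 and 07C3 were left out, mice kept elsewhere, whose totals of the RNA classes were noted in an earlier analysis of these files as not adding up (not examined again here); none passed the adjusted threshold in any of these.

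The direction of members in CTPR against CTCT depended on the scaling: the median of the 200 rows was 0.80, but 0.05 as shares of miRNA reads, 0.09 with TMM and 0.12 by DESeq2. As shares of miRNA reads the log2 fold changes that turned negative were let-7a-1 -0.37, let-7a-2 -0.014, let-7b -0.45, let-7c-1 -0.56, let-7c-2 -0.33, let-7d -0.34, let-7e -0.48, let-7f-1 -0.18, let-7f-2 -0.033 and let-7i -0.019. With TMM they were let-7a-1 -0.31, let-7a-2 -0.022, let-7b -0.42, let-7c-1 -0.53, let-7c-2 -0.28, let-7d -0.31, let-7e -0.45, let-7f-1 -0.084 and let-7f-2 -0.0069. By DESeq2 they were let-7a-1 -0.27, let-7a-2 -0.034, let-7b -0.47, let-7c-1 -0.53, let-7c-2 -0.28, let-7d -0.31, let-7e -0.43 and let-7f-1 -0.070. Without those 4 mice they were let-7c-1 -0.0073 and let-7f-1 -0.0081. Leaving out 1 mouse gave -0.0027 to 0.60 for let-7c-1 and -0.17 to 0.48 for let-7f-1, both negative without CTPR mouse 57P1.

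The log2 ratio of the summed family in CTPR against CTCT became -0.09 with TMM and -0.13 as a share of miRNA reads, which turned its direction; leaving out 1 mouse gave 0.40 to 0.81. In PRPR against PRCT that range was -0.41 to -0.05. Low miRNA content limits the scarce members most: mir-98 lay under 1 rpm in the lowest mouse of 3 groups.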
